A study of Homo sapiens with 44 samples.

Results

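The 8 genes described here encode transcription factors of the endoderm, the inner germ layer that forms the lining of the gut, the liver and the pancreas: FOXA1, FOXA2, FOXA3, SOX17, HNF4A, HNF4G, HHEX and PROX1. They were given by name and were found by their symbols among the 60499 gene identifiers of the count table. All 8 were among the 22956 genes with enough counts to be tested. They were followed through a culture made to yield heart cells.

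All 44 libraries came from 1 established line of human embryonic stem cells, H1. Each library was total RNA of 1 culture well. Pluripotent wells were grown on the laminin LN-521 (3 wells), and every other well carried LN-521 with LN-221. Confluent wells in Nutristem, a stem cell medium, were the day 0 group. They then received CHIR99021, a GSK3 inhibitor that activates Wnt signalling, and at day 3 the Wnt production inhibitor IWP2. Wells of days 1 to 9 had RPMI medium with B27 lacking insulin, and wells of day 11 onwards had CTS B-27. Wells were taken at days 1, 3, 14, 20, 30 and 90 (3 each, as at day 0) and at days 5, 7, 9 and 11 (5 each). The series text gives triplicates at day 11, where the sample labels list 5 wells, and all 5 were used. Because wells of 1 line are the replicates, p values measure the spread between wells only. Total counts ran from 6937136 to 33498022 per library, RNA integrity numbers (RIN, from 1 to 10) from 7.4 to 10, and the 3 shallowest libraries came from days 14, 20 and 30. Levels are counts per 1000000 counts (CPM) after scaling between libraries, and TPM (also divided by transcript length) where genes are compared with each other.

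FOXA factors are forkhead proteins that bind closed chromatin and open it for others, and FOXA2 marks the definitive endoderm that arises from Nodal and Wnt signals. SOX17 acts with them at the start of endoderm formation and is also used by endothelial cells. HNF4A and HNF4G are related nuclear receptors that drive genes of liver and gut, while HHEX and PROX1 are homeobox factors of the early liver bud that also act in endothelium, and PROX1 in lymphatic endothelium and heart muscle as well. Yolk sac endoderm uses many of these genes and the same secreted proteins as liver, so a product such as AFP does not tell the tissues apart.

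The members lie on 6 chromosomes (GRCh38, GENCODE annotation). FOXA1 (ENSG00000129514) spans chr14:37589984-37596059 on the minus strand, FOXA2 (ENSG00000125798) chr20:22581005-22585455 on the minus strand and FOXA3 (ENSG00000170608) chr19:45863989-45873797 on the plus strand. SOX17 (ENSG00000164736) spans chr8:54457935-54460888 and HNF4G (ENSG00000164749) chr8:75407914-75566843, both on the plus strand. HNF4A (ENSG00000101076) spans chr20:44355700-44434596, HHEX (ENSG00000152804) chr10:92689951-92695646 and PROX1 (ENSG00000117707) chr1:213983181-214041502, all on the plus strand. FOXA1 overlaps TTC6, HNF4A overlaps HNF4A-AS1 and PROX1 overlaps PROX1-AS1, each on the opposite strand. Whether the counting used the strand is not given in the sources used here, so reads of these pairs may not have been separated. HNF4A-AS1 was near 0 in every library, at most 0.808 CPM, whereas HNF4A reached 107 CPM.

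**Figure D1:**
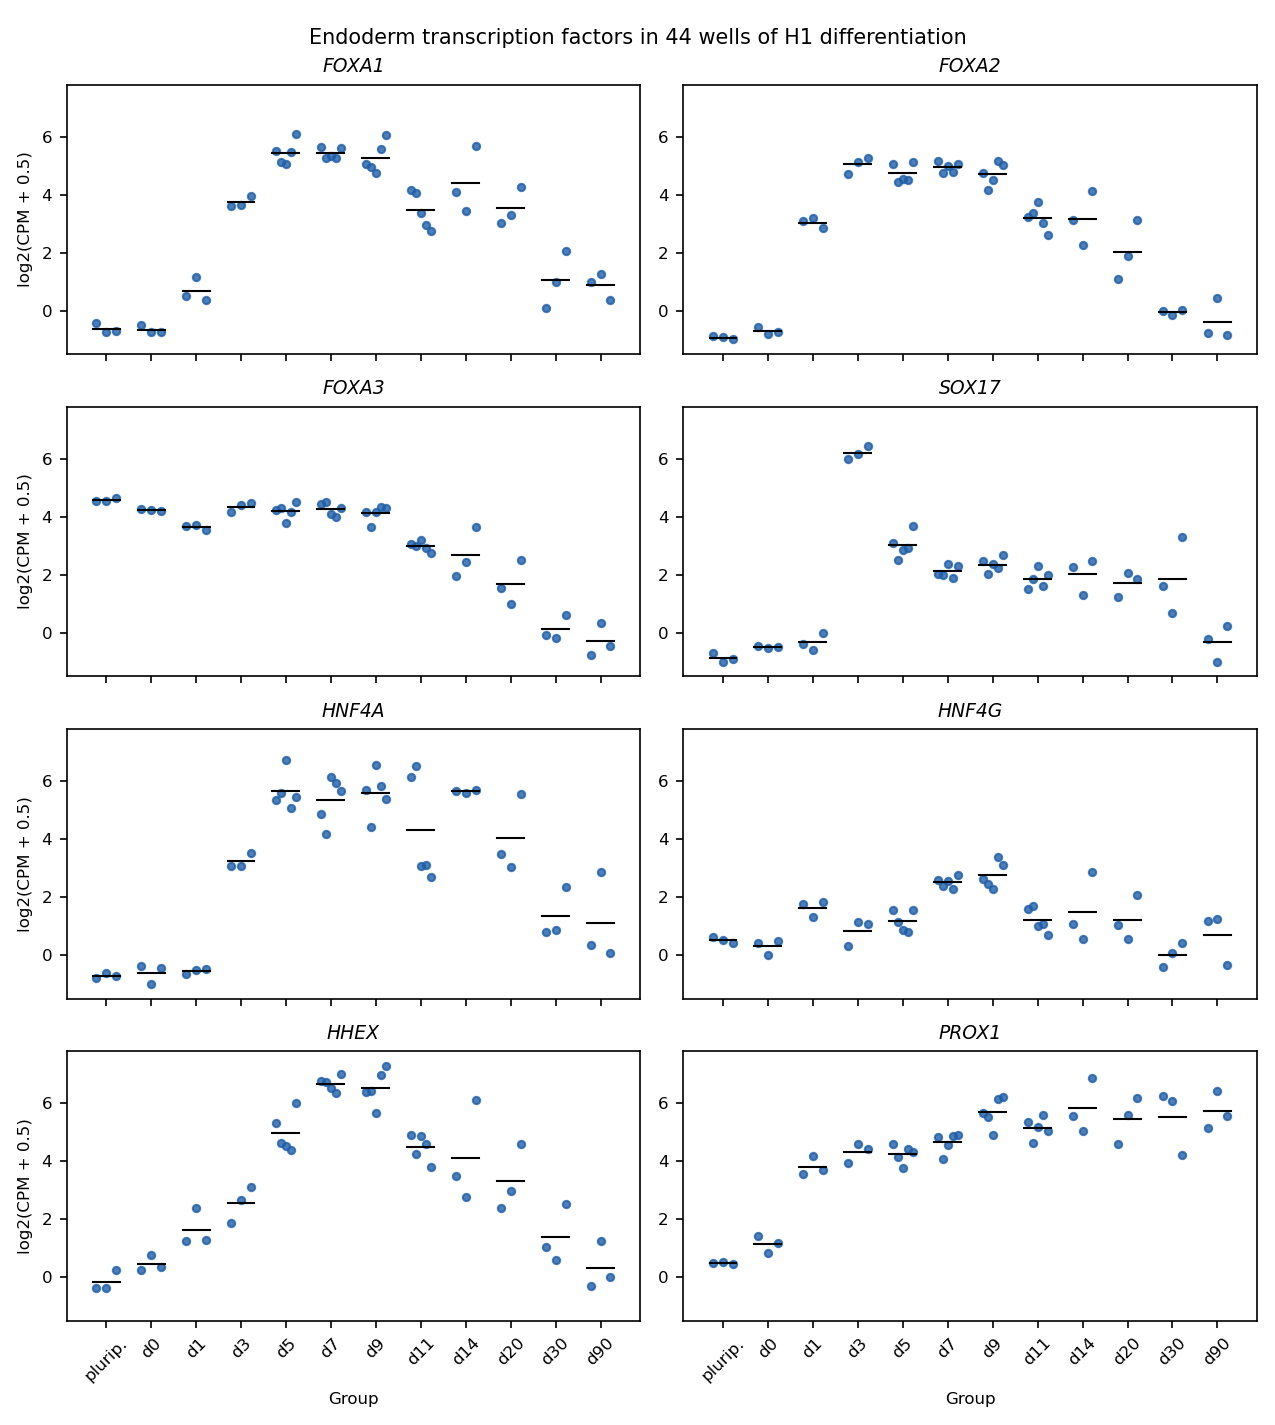
Level of each member in every well, as log2(CPM + 0.5) against the 12 groups from pluripotent to day 90. Points are wells and short bars are the group means of the log2 values. SOX17 stands highest at day 3 (62.7 to 86.6 CPM), HHEX at days 7 and 9, and the 5 wells of day 11 fall into separate levels for HNF4A (5.94 to 91.5 CPM).

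FOXA1 and FOXA2 were called at the day 1 step, as were PROX1 and HNF4G, while FOXA3 was not. FOXA2 was nearly absent before differentiation, with 1, 1 and 0 counts in the pluripotent wells and 5, 2 and 3 counts at day 0. After 1 day of CHIR99021 it read 7.92, 8.64 and 6.63 CPM, and at day 3 25.9, 34.3 and 38.2 CPM. The day 0, day 1 and day 3 wells did not overlap. The day 1 rise over day 0 was 6.04 on the log2 scale (SE 0.62, adjusted p = 2.7e-09 by edgeR's quasi-likelihood test with Benjamini-Hochberg adjustment, used for every adjusted p of a change below), and day 3 over day 1 added 2.09 (SE 0.43, adjusted p = 0.00025). FOXA2 then stayed level to day 9, where the 5 wells ran from 17.2 to 35.1 CPM with a median of 26.2.

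FOXA1, a close relative of FOXA2 that can share its sites, was called higher at each of the steps to day 1, day 3 and day 5. Its wells read 0.91, 1.74 and 0.778 CPM at day 1, 11.7, 12 and 14.8 at day 3, and 32.6 to 68.2 at day 5 (median 43.8). Each of these groups lay wholly above the one before it. The steps were 3.03 (SE 0.74, adjusted p = 0.0025) at day 1, 3.49 (SE 0.54, adjusted p = 4e-06) at day 3 and 1.81 (SE 0.45, adjusted p = 0.0035) at day 5, each on the log2 scale against the group before.

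FOXA3, the member of the family best known from liver and gut, differed from both in being present before differentiation. It read 22.9, 23.0 and 24.5 CPM in pluripotent wells, 19.0, 18.3 and 18.0 at day 0 and 17.2 ± 3.07 CPM at day 9 (SD, n = 5). Day 9 and day 0 overlapped, with a log2 difference of -0.10 (SE 0.30, adjusted p = 0.81), against rises of 8.17 for FOXA1 (SE 0.70, adjusted p = 4.4e-12) and 7.81 for FOXA2 (SE 0.62, adjusted p = 5.1e-13) in the same comparison. The 3 protein-coding genes with the pattern most like FOXA3 over all 44 libraries included TRIM71 and LIN28A, RNA-binding proteins of pluripotent cells (Pearson r 0.953 and 0.951, a description over libraries that share the time course), and RAB11FIP4 (0.950).

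The makeup of the FOXA family by TPM turned over. FOXA3 made up 99.5% ± 0.305 of the summed FOXA TPM in pluripotent wells and 62.1% ± 2.63 at day 1 (SD, n = 3 each). FOXA2 had the largest share at day 3, 46.6% ± 2.08 (SD, n = 3), and FOXA1 at day 5, 48.1% ± 2.94 (SD, n = 5). In each of these groups the wells lay close together beside the distance between the genes. The sum itself was 7.47 ± 1.08 TPM in pluripotent wells (SD, n = 3) and 24.3 ± 11.6 at day 5 (SD, n = 5). FOXA1 kept the largest mean share through day 90, 74.1% ± 20.4 (SD, n = 3) of a family total that had come down to 0.370 ± 0.233 TPM.

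**Figure D2:**
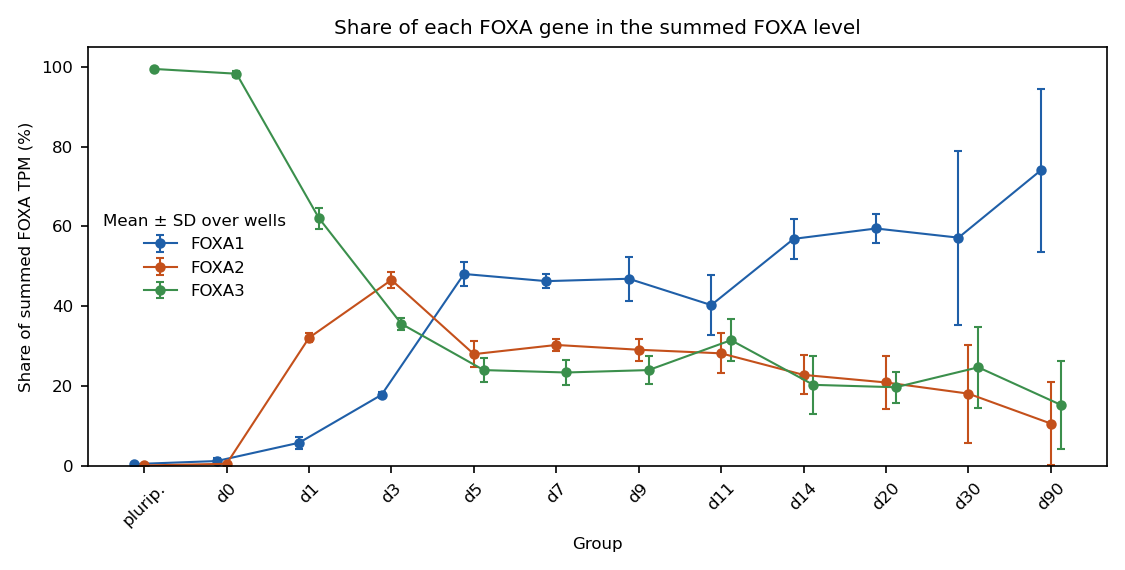
Share of the summed FOXA1, FOXA2 and FOXA3 TPM that each gene holds (percent, y axis) in the 12 groups (x axis), as mean and SD over wells with lines joining the means. FOXA3 holds 99.5% in pluripotent wells, FOXA2 the largest share at day 3 (46.6%) and FOXA1 from day 5 (48.1%) on.

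SOX17 was a transient member. It had between 5 and 16 counts in each day 1 library and then read 62.7, 70.9 and 86.6 CPM at day 3. By day 5 the wells stood at 5.19 to 12.5 CPM (median 7.04), far below every day 3 well. The rise from day 1 was 7.86 on the log2 scale (SE 0.64, adjusted p = 3.9e-12), the largest change of any member between neighbouring groups, and the fall to day 5 was -3.21 (SE 0.41, adjusted p = 2.1e-07). From day 7 to day 30 its group means stayed between 2.88 and 4.68 CPM with overlapping wells in neighbouring groups of the time course. The genes most like SOX17 in pattern were JCAD, an endothelial junction protein (r 0.902), NFATC1 (0.884) and APLNR, the apelin receptor (0.877).

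Of the 8 members, 4 were called higher at day 1 against day 0, FOXA1 and FOXA2, PROX1 and HNF4G. A call needs an adjusted p under 0.05 and a log2 change of at least 1, and 3.85% of all tested genes were called higher in this comparison. PROX1 wells read 2.18, 1.3 and 1.8 CPM at day 0 and 11.4, 17.6 and 12.5 at day 1, without overlap, a rise of 2.98 (SE 0.48, adjusted p = 1.3e-05). HNF4G rose by 1.82 (SE 0.55, adjusted p = 0.015), and without day 0 replicate 2 its adjusted p was 0.076. From day 1 to day 3 another 4 calls were all higher, FOXA1, FOXA2, SOX17 and HNF4A, where 11% of all genes were called higher. Between pluripotent and day 0 wells no member was called by edgeR, 1 had an unadjusted p under 0.05, and DESeq2 called 0 as well, where 2.89% of all genes were called in either direction.

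Definitive endoderm markers were mostly higher at days 1 and 3 than at day 0, and moved both ways between days 1 and 3. On a list of 14 companions of early endoderm, 8 were called higher and 0 lower at day 1 against day 0, and 10 higher and 0 lower at day 3 against day 0 (median log2 4.49, against 0.02 over all genes). At day 3 against day 1, 6 were higher and 4 lower (median log2 -0.15), with NODAL, a signal that induces endoderm, among the lower ones, and at day 5 against day 3, 1 was higher and 9 lower. Over all genes 3.85% were called higher at day 1 against day 0 and 7.78% at day 3 against day 0. At day 3 against day 1, 11% of all genes were called higher and 1555 of 22956 lower. At day 5 against day 3, 5.71% were called higher and 4.33% lower. EOMES, a T-box factor upstream of endoderm genes, rose by 8.04 (SE 0.72, adjusted p = 5.2e-11) and the GATA factor GATA6 by 7.76 (SE 0.41, adjusted p = 4.2e-17) at day 3 against day 0. EPCAM, an epithelial adhesion protein of the list, read 126 CPM at day 0 and 172 CPM at day 3 and did not pass (adjusted p = 0.53). CXCR4, a receptor commonly used to sort definitive endoderm, read 34, 60.2 and 66.9 CPM at day 3 against 2.04 ± 0.506 at day 0 (SD, n = 3). It was named after its values had been seen. CXCR4, EOMES and GATA6 are also expressed in early mesoderm, and TBXT, a mesoderm gene of the floor plate and notochord list, read 311 CPM at day 1 and 19.5 at day 3.

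HNF4A, whose level differed widely between wells of a day, is transcribed from alternative promoters, and RefSeq (GRCh38.p14) gives 2 entries whose windows lie 45.5 kb apart. They are shown because gene counts do not tell which start was used at any day. Each is the 250 bases before a transcription start, 5′ to 3′ on the plus strand, from chr20:44355449-44355698 (upstream) and chr20:44400989-44401238 (downstream). No letters are in capitals, since none of the motifs searched was found in them.
HNF4A upstream: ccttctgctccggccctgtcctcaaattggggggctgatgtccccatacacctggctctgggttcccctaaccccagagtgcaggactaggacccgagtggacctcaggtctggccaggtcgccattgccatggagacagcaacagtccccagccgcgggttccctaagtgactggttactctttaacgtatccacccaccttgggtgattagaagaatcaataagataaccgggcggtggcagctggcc
HNF4A downstream: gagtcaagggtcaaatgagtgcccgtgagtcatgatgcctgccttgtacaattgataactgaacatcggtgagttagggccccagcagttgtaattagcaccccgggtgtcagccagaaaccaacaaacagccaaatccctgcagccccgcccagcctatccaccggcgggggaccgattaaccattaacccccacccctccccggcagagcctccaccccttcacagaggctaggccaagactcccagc
Promoter entries were found for 4 of the 8 members, and FOXA2, SOX17, HNF4G and PROX1 had none. The 5 windows of FOXA1, FOXA3, HHEX and HNF4A held no match on either strand of TGTTTAC (forkhead, in 2.98% of all windows), CAAAGTCCA (HNF4, 0.325%), ACAAAGG (SOX, 4.45%) or ACAATGG (SOX, 2.62%), none of which contains another. The shares are of 35116 promoter windows of the same length. GC content was 67.2% in the FOXA1 window, 75.2% in that of FOXA3, 81.2% in that of HHEX, and 58.4% and 58.0% in the HNF4A windows. The windows lie before RefSeq starts. Those of FOXA1 (chr14:37595250-37595499) and FOXA3 (chr19:45864076-45864325) fall inside the GENCODE spans given above.

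HNF4A was called a step later than FOXA2. It read 0.135, 0.193 and 0.218 CPM at day 1 and 7.99, 7.97 and 11.0 at day 3. The day 5 wells ran from 33.1 to 107.0 with a median of 43.4, again above every well of the group before. Day 3 exceeded day 1 by 5.58 (SE 1.14, adjusted p = 0.00025) on the log2 scale. Day 5 exceeded day 3 by 2.60 (SE 0.80, adjusted p = 0.020), and this call was lost without any 1 of the 3 day 3 wells or without day 5 replicate 3 (adjusted p 0.057 to 0.096). HNF4A made up 94.9% ± 2.40 of the summed HNF4A and HNF4G TPM at day 5 (SD, n = 5) and 4.34% ± 2.03 at day 1 (SD, n = 3), when the sum was 0.783 TPM.

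HHEX, a homeobox factor needed for the liver bud, was called higher at day 3 than at day 0, by 2.66 (SE 0.74, adjusted p = 0.0064), and rose further to day 7. Its wells read 3.14, 5.92 and 8.11 CPM at day 3, 20.4 to 64.2 at day 5 (median 24.5), 82.6 to 128.0 at day 7 (median 107.0) and 50.2 to 155.0 at day 9 (median 85.5). Days 3, 5 and 7 did not overlap one another. The step to day 5 was 2.59 (SE 0.63, adjusted p = 0.0032). The step to day 7 was 1.59 (SE 0.49, adjusted p = 0.045), and it fell short of the threshold without day 5 replicate 1, 2, 3 or 4, without any 1 of the day 7 wells, and with lane in the model (adjusted p = 0.052). F2, the gene of the liver-made clotting protein prothrombin, had the pattern most like HHEX (r 0.941), before TTC6 (0.931) and GGT2 (0.922).

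HNF4G stayed low throughout, with a highest group mean of 6.64 ± 2.37 CPM at day 9 (SD, n = 5). Its 5 day 7 wells, from 4.32 to 6.23 CPM (median 5.39), lay above all day 5 wells, from 1.22 to 2.45 (median 1.68). The rise was 1.52 (SE 0.41, adjusted p = 0.018), and without day 5 replicate 4 its adjusted p was 0.064. HNF4G had the weakest matches in pattern, LYPD6B (r 0.797), ISX, a homeobox factor of the intestine (0.782), and ONECUT1, a hepatic regulator (0.782).

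In step counts, 3 members were called higher and 1 lower at day 5 against day 3 (5.71% and 4.33% of all genes), and 2 higher at day 7 against day 5 (2.73% of all genes). None was called at day 9 against day 7 by edgeR, with 1 at an unadjusted p under 0.05 and 1 called by DESeq2, where 1.26% of all genes were called. Against day 0, the day 3 wells had 6 members called higher (7.78% of all genes) and the day 9 wells 7, all but FOXA3 (17.1%). The median log2 change of the 8 members at day 9 against day 0 was 5.87, and 0.08 over all genes. In limma on log2(TPM + 0.1) the 7 members were called as well, while higher calls made up 33.3% of all called genes in place of 54.0%. Neighbouring comparisons share a group, so these counts are not independent of one another.

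Genes that these factors are known to act on in liver were mostly called from day 5 on. Of 20 hepatic and yolk sac endoderm products, 2 were called higher at day 3 against day 1, 11 at day 5 against day 3, and 20 at day 9 against day 0, with 0 lower each time. Over all genes 11%, 5.71% and 17.1% were called higher in these comparisons, so the day 3 count is near the background. TTR, a thyroid hormone carrier, went from 0.394 ± 0.190 CPM at day 0 (SD, n = 3) to 271 ± 141 at day 9 (SD, n = 5), which was 9.41 higher on the log2 scale (SE 1.23, adjusted p = 7.5e-08). FGA, a fibrinogen chain, rose by 9.38 (SE 1.42, adjusted p = 1.2e-06), and AFP, the fetal serum protein, reached 1355 ± 1662 CPM (SD, n = 5), an SD larger than its mean. Of 18 other endoderm regulators, 13 were called higher and 1 lower at day 9 against day 0. Among them PDX1, a pancreatic and duodenal factor, had 0 counts in every day 0 well and stayed low at day 9, 0.982 ± 0.292 CPM (SD, n = 5, adjusted p = 9.8e-05).

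LINC00261, a long non-coding RNA gene next to FOXA2 (chr20:22547671-22578642, minus strand), had the largest called change of that regulator list at day 9. It read 0.943, 0.803 and 0.841 CPM at day 1 and 52.8, 50.8 and 62.7 at day 3, a rise of 6.00 (SE 0.79, adjusted p = 2.8e-07), whereas FOXA2 had already reached 7.73 CPM on average at day 1. It then kept to between 42.8 and 104.0 CPM at day 9. Among the genes most like FOXA1 in pattern were KIAA1024 (r 0.945) and TTC6 (0.939), the latter overlapping it, and those most like FOXA2 were ARSE (0.944), PRTG (0.932) and ZNF611 (0.926).

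Genes of other cell types were read in the same wells, and fewer cells of a type and less RNA per cell cannot be told apart in such bulk samples. At day 9, 11 of 13 cardiomyocyte genes were called higher than at day 0 and 0 lower, among them MYH6, an atrial myosin, which rose by 8.72 (SE 0.62, adjusted p = 3.2e-14), and MYL7 by 8.58 (SE 0.70, adjusted p = 1.7e-12). Their summed level ran from 7277 to 16708 CPM and that of the hepatic list from 1244 to 10125 CPM, and sums over different genes do not measure amounts of cells. Of 15 tested endothelial genes, 10 were called higher and 2 lower, with CDH5, the endothelial cadherin, up by 6.67 (SE 0.68, adjusted p = 3.4e-10). The summed endothelial level ran from 459 to 696 CPM at day 9 and from 396 to 420 at day 0. Over all 22956 genes, 3929 (17.1%) were called higher and 3341 lower at day 9 against day 0. Of 10 floor plate, notochord and neural genes 2 were higher and 1 lower, which is near these shares. At day 9 SHH read 1.92 ± 1.05 CPM (SD, n = 5), and CORIN, which heart muscle also expresses, 178 ± 48.0. Of 6 tested intestinal and pancreatic genes, 3 were higher and 0 lower, with VIL1, a brush border protein, up by 4.78 (SE 0.76, adjusted p = 2.8e-06), while INS, GCG and PTF1A had too few counts to test. The part of these cell types in the members' levels was not tested.

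**Figure D3:**
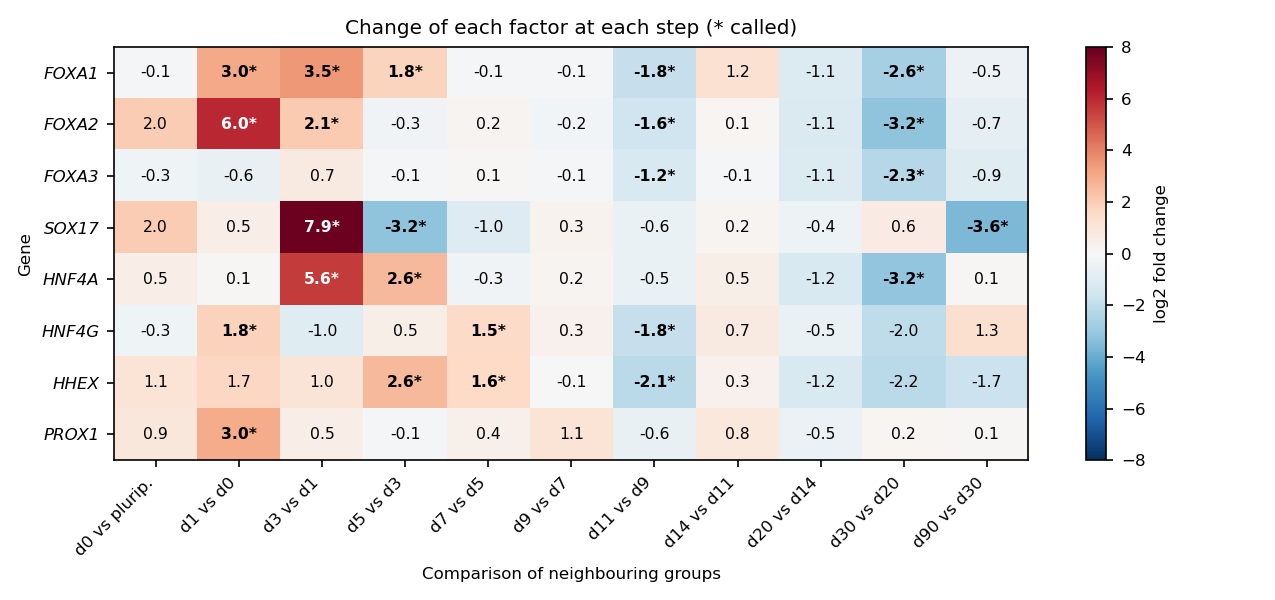
Log2 fold change of each member (rows) between neighbouring groups in time (columns) from the edgeR fit, red for higher and blue for lower in the later group, with an asterisk for called changes. Calls are upward up to day 7 apart from SOX17 at day 5, and downward from day 11 on.

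The decline began at day 11, when 5 members were called lower than at day 9 and 0 higher, where 1.22% of all genes were called lower. HHEX fell by 2.13 (SE 0.50, adjusted p = 0.011), FOXA1 by 1.83 (SE 0.37, adjusted p = 0.0033), HNF4G by 1.82 (SE 0.42, adjusted p = 0.0092), FOXA2 by 1.57 (SE 0.33, adjusted p = 0.0044) and FOXA3 by 1.2 (SE 0.26, adjusted p = 0.0065). FOXA2 read 8.78, 9.92, 12.8, 7.52 and 5.56 CPM at day 11, all below the lowest day 9 well, 17.2. HHEX read 29.4, 18.4, 28.7, 23.7 and 13.6 CPM, all below the lowest day 9 well, 50.2. These 5 calls held when any single well of either day was left out. None passed in limma on log2(TPM + 0.1), which called only 7 of all 21980 genes lower at this step. HNF4A, SOX17 and PROX1 were not called at this step.

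HNF4A fell into separate levels within day 11. Replicates 1 and 2 read 69.5 and 91.5 CPM, and replicates 5, 6 and 7 read 7.91, 8.1 and 5.94. The 2 sets did not overlap, whereas FOXA2 (8.78 and 9.92 against 5.56 to 12.8) and HHEX (18.4 and 29.4 against 13.6 to 28.7) did not part the same wells. Replicates 1 and 2 also had summed hepatic levels of 7788 and 14098 CPM against 587, 587 and 473, and summed cardiomyocyte levels of 8546 and 5614 CPM against 21917, 21809 and 20672. FOXA1 (17.5 and 16.1 against 6.25 to 9.86 CPM), HNF4G (2.48 and 2.72 against 1.1 to 1.6) and LINC00261 (52.3 and 51.1 against 6.18 to 11.4) were higher in the same 2 wells. Their RIN was 8.6 and 8.0, against 9.2 to 9.5 in the others, and each of the 5 wells was on a lane of its own. The part of RNA quality or lane in this split was not tested. The mean HNF4A change from day 9, -0.53 (SE 0.61, adjusted p = 0.71), averages over these separate levels.

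No member was called at day 14 against day 11 or at day 20 against day 14 by edgeR or DESeq2, with 2 and 3 at an unadjusted p under 0.05, and 0.671% and 0.061% of all genes called. Wells again differed within a day. Day 14 replicate 6 read 68.7 CPM for HHEX against 10.9 and 6.32 in replicates 2 and 3, 51.3 for FOXA1 against 16.6 and 10.2, and 117.0 for PROX1 against 46.8 and 32.8. HNF4A did not share this, at 51.7 CPM against 50.4 and 47.5. At day 20 HNF4A read 10.8, 7.66 and 46.2 CPM, and replicate 3, the high well, was also highest for FOXA1, FOXA2, FOXA3, HNF4G, HHEX and PROX1 and had the highest summed hepatic level (6591 CPM against 2735 and 1590).

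A second fall came by day 30, with 4 members called lower than at day 20 and 0 higher, where 1.22% of all genes were called lower. FOXA2 fell by 3.23 (SE 0.54, adjusted p = 0.00043), from 1.65, 3.15 and 8.25 CPM to 0.489, 0.39 and 0.509. FOXA1 fell by 2.64 (SE 0.53, adjusted p = 0.0028), and FOXA3 fell by 2.31 (SE 0.42, adjusted p = 0.001). The day 20 and day 30 wells of these 3 genes did not overlap. HNF4A fell by 3.18 (SE 0.90, adjusted p = 0.045), from the 3 values above to 1.22, 1.33 and 4.58 CPM, and this call was lost without day 20 replicate 3, day 30 replicate 1 or day 30 replicate 10, and with lane in the model (adjusted p = 0.09). The calls at this step rest on a spread shared by all 12 groups. A fit of these 6 libraries alone called 0 members, and 0 of all 18096 genes it tested. Of the hepatic list 10 of 20 were called lower and 0 higher, with APOB, a lipoprotein, falling by 5.52 (SE 1.13, adjusted p = 0.0036), and AHSG, fetuin, by 5.48 (SE 1.51, adjusted p = 0.039).

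SOX17 changed again late in the course. At day 30 it read 2.57, 1.09 and 9.31 CPM in replicates 1, 10 and 3, and replicate 3 also had the highest summed endothelial level, 234 CPM against 124 and 90.7. CDH5 stood at 14.4 CPM in that well and at 3.38 and 1.95 in the others. The same well had the highest summed hepatic level too, 488 CPM against 85 and 37.4. HNF4A (4.58 CPM against 1.22 and 1.33) and HHEX (5.32 against 1.55 and 1.02) were also highest there, while PROX1 was lowest. The part of any cell type in the SOX17 level was not tested. At day 90 SOX17 read 0.359, 0.0 and 0.672 CPM, all below the day 30 wells, a fall of 3.59 (SE 0.60, adjusted p = 0.00013), while 6 of 15 endothelial genes were called lower and 0 higher. It was the only member called between days 30 and 90, where 2.43% of all genes were called lower. A fit of these 6 libraries alone called 0 members, and 0 of all 17049 genes it tested. Limma on log2(TPM + 1) also called 0 members, while limma on log2(TPM + 0.1) called 1.

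PROX1 was the only member not called lower at day 90 than at day 9. Its wells read 29.6 to 74.6 CPM at day 9 (median 50.1), 75.8, 67.3 and 18.1 at day 30 and 35.0, 86.8 and 47.3 at day 90. Day 90 and day 9 overlapped in CPM and in TPM (2.64 ± 1.51 TPM, n = 3, and 4.37 ± 3.22, n = 5, SD), with a log2 difference on counts of 0.05 (SE 0.37, adjusted p = 0.94). The other 7 members were all called lower at day 90 than at day 9, where 11.9% of all genes were called lower, from HNF4G, -2.35 (SE 0.53, adjusted p = 0.00042), to HHEX, -6.89 (SE 0.84, adjusted p = 2.6e-08). Of the hepatic list 19 of 20 were called lower and 0 higher, and of the endothelial list 13 of 15 lower and 1 higher, while 11 of 13 cardiomyocyte genes were called higher and 1 lower. Genes most like PROX1 were SETD7 (r 0.947), YAF2 (0.935) and SLC9B2 (0.921). PROX1-AS1, its antisense partner, read 5.19 to 8.13 CPM at day 9 and 6.05, 31.9 and 10.6 at day 90, where the groups overlap and replicate 4 is far above the others (log2 difference 1.22, SE 0.44, adjusted p = 0.025).

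At day 90 every member but SOX17 was highest in replicate 4. HNF4A read 0.762, 6.82 and 0.56 CPM in replicates 2, 4 and 5, and FOXA2 0.0897, 0.835 and 0.056. HHEX, FOXA3 and PROX1 were highest in replicate 4 too, at 1.88, 0.765 and 86.8 CPM. The FOXA2 values rest on only 2, 12 and 1 counts in replicates 2, 4 and 5, and those of FOXA3 on 2, 11 and 4. FOXA1 (1.48, 1.88 and 0.784 CPM) and HNF4G (1.75, 1.88 and 0.28) were about as high in replicate 2, and SOX17 was 0 in replicate 4. The summed hepatic level of that well was 257 CPM against 18.4 and 18.3, and its cardiomyocyte level, 63143 CPM, was the highest of the 3.

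In the order of the group means, few neighbours were separated. For SOX17 only day 3 stood clear at the top, at 73.4 ± 12.2 CPM (SD, n = 3), above day 5 at 7.93 ± 2.76 (SD, n = 5). FOXA1 was highest at day 5, 44.9 ± 14.1 CPM (SD, n = 5), and FOXA2 at day 3, 32.8 ± 6.28 (SD, n = 3), but each overlapped the next group in its order, as did HNF4A at day 5 (54.4 ± 30.0, n = 5), HHEX at day 7 (104 ± 17.6, n = 5), HNF4G at day 9 and PROX1 at day 14 (65.5 ± 45, n = 3). FOXA3 was highest in pluripotent wells, 23.4 ± 0.891 CPM (SD, n = 3), above all wells of day 3, the next in its order. For HNF4G and HHEX no group was separated from its neighbour in the order.

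Whether members rose and fell together between wells of the same day was examined over the 32 wells of days 5 to 90, after the group mean of log2(CPM + 0.5) had been taken from each value. Of 28 pairs of members, 13 had an adjusted p under 0.05 (two-sided permutation within groups, 100000 resamples, adjusted over 52 relations), all with a positive r. FOXA2 and HHEX gave Pearson r 0.84 and Spearman rho 0.80 (permutation p = 1e-05 for each, the smallest the resampling can give, adjusted p = 0.00017). Leaving out the 2 wells farthest from the median of FOXA2 gave r 0.77, and within the 5 lanes r ran from 0.67 to 0.93. FOXA1 and HNF4G gave r 0.86 and rho 0.86 (same p values), r 0.83 without 2 wells, and 0.80 to 0.92 within lanes. SOX17 formed no pair that passed. On log2(TPM + 0.1) all 28 pairs passed, so the number of pairs depends on the scale. The permutation takes wells of different days as independent. Same-numbered wells of some days deviated alike over all tested genes, with r 0.0545 to 0.454 at day 9 against day 7. At day 20 against day 14 r was 0.610 and 0.553. If such wells are related, these p values and those of the relations below are too small.

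HNF4A and the hepatic products moved together from well to well. HNF4A followed the mean log2 level of the 20 hepatic genes with r 0.94 and rho 0.93 (permutation p = 1e-05 and adjusted p = 0.00017 for each), r 0.91 without the 2 farthest wells, 0.93 to 0.97 within lanes, 0.95 on the TPM scale, and 0.88 when all day 11 wells were left out, a step chosen after the data had been seen. FOXA2 and the hepatic list gave r 0.20 and rho 0.21 (permutation p = 0.26 and 0.28, adjusted p = 0.37 and 0.40), with r from -0.28 to 0.96 within lanes. FOXA2 and HNF4A gave r 0.41 and rho 0.40 (permutation p = 0.045 and 0.046, adjusted p = 0.12 and 0.13), with r from 0.01 to 0.97 within lanes. On log2(TPM + 0.1) this pair passed, as did all 28 pairs of members. The difference between these relations was not tested. PDZK1, a scaffold protein (r 0.963), APOA1, the main protein of HDL (0.951), and SLC39A5 (0.931) were the genes most like HNF4A over all 44 libraries.

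HNF4A was inversely related to the cardiomyocyte list on CPM, with r -0.61 and rho -0.52 (permutation p = 0.015 and 0.022, adjusted p = 0.049 and 0.07), but r was -0.43 without the 2 farthest wells, -0.23 without day 11 (adjusted p = 0.43) and -0.03 on the TPM scale. This relation rests on few wells and on the scale. PROX1, which also acts in lymphatic endothelium, was inversely related to the endothelial list, with r -0.59 and rho -0.57 (permutation p = 0.0052 and 0.0058, adjusted p = 0.021 and 0.023), r -0.47 without 2 wells, and -0.94 to -0.05 within lanes. On the TPM scale it turned to 0.24 (adjusted p = 0.27). PROX1 and the cardiomyocyte list gave r 0.40 and rho 0.34 (permutation p = 0.022 and 0.09, adjusted p = 0.068 and 0.22), with r from -0.44 to 0.81 within lanes. SOX17 and the endothelial list gave r 0.29 and rho 0.14 (permutation p = 0.35 and 0.55, adjusted p = 0.44 and 0.64).

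**Figure D4:**
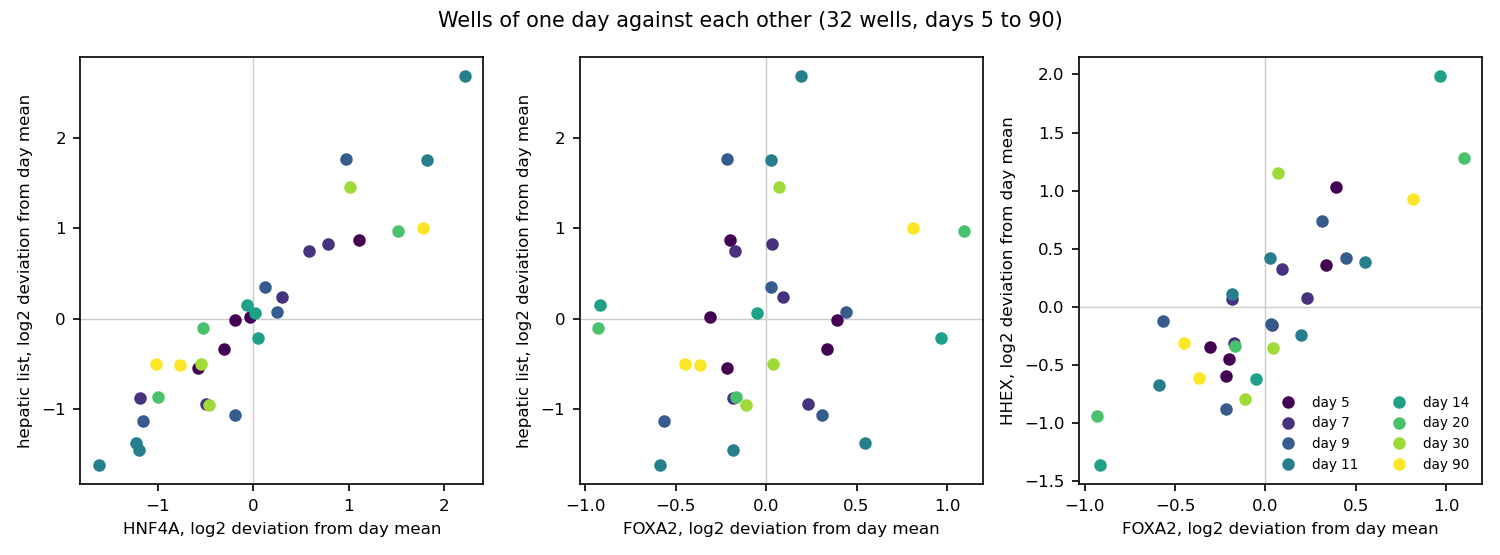
Deviation of each well of days 5 to 90 from its group mean, in log2(CPM + 0.5), for 3 pairs of measures named on the axes, with 1 point per well coloured by day. HNF4A follows the hepatic list (r 0.94) and FOXA2 follows HHEX (r 0.84), whereas FOXA2 and the hepatic list show r 0.20.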

How the data were processed

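Total RNA of 44 wells was sequenced as stranded, paired-end libraries, per the labels' protocols. The submitters' processing notes name cutadapt, STAR 2.5.2b, RSEM 1.2.31 and hg38; the annotation and the use of strand in counting are not given in the sources used here. The authors deposited estimated counts per gene (93.8% of values whole within 1e-09, not scaled between libraries) and TPM, scaled for transcript length and depth. The authors' deposited sample table gives the RIN, an RNA integrity score, and the lane, with 5 lanes. All columns matched a labelled sample. Symbols come from GENCODE release 29, which names 56769 of 60499 identifiers.

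Estimated counts were rounded, filtered with filterByExpr, scaled by TMM and fitted with edgeR 4.0.16 (R 4.3.3), using quasi-likelihood with 12 group means over all 44 libraries and 14 contrasts. Adjusted p values cover all 22956 genes. Each SE of a log2 change was worked back as its absolute value divided by the square root of the test's F statistic. It is therefore approximate. Counts were also simulated for day 9 against day 0 over 22956 genes. There 96% of 100 4-fold and 15% of 100 2-fold changes had an adjusted p under 0.05, as did 9 unchanged genes. The log2 threshold of a call was not applied to them. The simulation gave every gene the same dispersion and changed only genes above a count limit. A floor of 3 counts is 0.0896 to 0.432 CPM, and it covers counting error only.

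The members and marker lists were chosen with earlier results of these data known. All members are named; of each list the 2 genes with the highest TPM and the 2 with the largest called change may be named, and for each member the 3 protein-coding genes with the highest r of log2(CPM + 0.5). Of the genes this rule names, 1 is not reported here. Genes outside this rule are marked or were named for a result they touch (TBXT, TTR, AFP, CDH5 and transcripts beside members). Alternatives were RLE scaling, DESeq2 1.42.0, other filters, limma 3.58.1 on TPM with 2 pseudocounts, the compared groups alone, the replicate number or lane as a factor, shallow libraries left out, and each well left out.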

Additional observations from a re-analysis of the deposited data

Results flagged for a closer look

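Of 32 sets of 5 wells examined (8 members at days 5, 7, 9 and 11), 1 had a well standing apart by Dixon's criterion, under which chance alone marks about 1 set in 20. HNF4A in day 5 replicate 3 read 107 CPM, while the other 4 wells of that day ran from 33.1 to 48.3 CPM, and the gap took up 0.795 of the range. The same well had the highest summed hepatic level of its day, 1876 CPM against 575 to 913, and the highest summed endothelial level, 911 CPM against 469 to 715. Its FOXA2 level, 22.6 CPM, lay within the range of the other wells, and its FOXA1 level, 32.6 CPM, was the lowest of the day.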

How the results depend on the processing

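In sum 44 member changes were called, and no called change reversed its direction under any alternative. Leaving out 1 library kept 310 of 328 values past the threshold, other count settings 341 of 352, and limma on TPM 75 of 132. Counts of members called moved as follows, against the 4, 4, 2, 5 and 4 reported for day 1 against day 0, day 5 against day 3, day 7 against day 5, day 11 against day 9 and day 30 against day 20. They were 2, 1, 0, 0 and 0 in limma on log2(TPM + 0.1), with or without its filter, and 1, 1, 0, 0 and 0 on log2(TPM + 1). Over all genes, limma on log2(TPM + 0.1) with its filter called 1397, 1731, 446, 16 and 62 of 21980. The main fit called 3088, 2303, 830, 371 and 453 of 22956. On log2(TPM + 1) day 90 against day 30 had 0 in place of 1. With only the compared groups, day 0 against pluripotent and day 9 against day 7 had 1 each in place of 0. Day 30 against day 20 and day 90 against day 30 had 0 in that setting, where 0 of all 18096 and 17049 tested genes were called. DESeq2 called 1 at day 9 against day 7. Day 7 against day 5 had 1 with every gene above 0 counts and 1 with lane as a factor. The cause was not tested.

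With 1 library left out, counts ran from 0 to 0 for day 0 against pluripotent, 3 to 4 for day 1 against day 0, 4 to 4 for day 3 against day 1, 3 to 4 for day 5 against day 3, 0 to 2 for day 7 against day 5 (0 without day 5 replicate 4), 0 to 1 for day 9 against day 7 (1 without day 9 replicate 2), 5 to 5 for day 11 against day 9, 0 to 1 for day 14 against day 11 (1 without day 14 replicate 3), 0 to 2 for day 20 against day 14 (2 without day 20 replicate 3), 3 to 6 for day 30 against day 20 and 1 to 2 for day 90 against day 30 (2 without day 90 replicate 4). They stayed at 6, 7 and 7 for day 3 and day 9 against day 0 and day 90 against day 9.

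In limma on log2(TPM + 0.1) the median of all genes moved by over 0.1 in several comparisons. It was -0.29 at day 5 against day 3, 0.49 at day 14 against day 11, -0.72 at day 90 against day 30, -0.27 at day 9 against day 0 and -0.53 at day 90 against day 9. Higher calls there made up 32.4%, 90.9% (10 of only 11 called genes), 3.0%, 33.3% and 18.3% of called genes in place of 56.9%, 68.8%, 52.1%, 54.0% and 50%. The median also moved to 0.11 at day 1 against day 0, -0.21 at day 7 against day 5, -0.16 at day 20 against day 14 and 0.22 at day 3 against day 0. Across wells, 28 of 28 pairs passed on TPM in place of 13, and 11 without day 11. PROX1 with the endothelial list reversed to r 0.24 on TPM.

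Replicate numbers were not taken to pair wells, since in no comparison with 3 or more shared numbers did every same-numbered pair correlate above 0.1. This rule cannot exclude pairing between some days. At day 20 against day 14, which share only 2 numbers, r was 0.610 and 0.553. At day 9 against day 7 all 5 r were positive, from 0.0545 to 0.454. With the replicate block the counts called were 0, 4, 4, 4, 2, 0, 5, 0, 0, 4 and 1 for the steps in time order, 6 and 7 for days 3 and 9 against day 0, and 7 for day 90 against day 9, each equal to the count without it.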
